A study of Mus musculus with 12 samples.

Results

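The Fc gamma receptors are the receptors through which macrophages bind the constant part of IgG antibodies. The genes described here are Fcgr1, Fcgr2b, Fcgr3 and Fcgr4, which encode the 4 mouse IgG receptors FcγRI, FcγRIIB, FcγRIII and FcγRIV, and Fcer1g, which encodes the signal chain shared by the activating ones. They were taken by symbol as 1 receptor family, with earlier results of these data known, and are 5 of the 22180 genes with 1 symbol tested on the array. Each was read by 1 probe set that carried no other symbol, with the identifiers 17408024 (Fcgr1), 17229607 (Fcgr2b), 17229620 (Fcgr3), 17219199 (Fcgr4) and 17229658 (Fcer1g).

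The study put RNA of mouse primary macrophages on 12 arrays of 1 colour, with 3 arrays in each of 4 groups. KO TAMs were macrophages knocked out for Cd36 that had shared their culture with 5TGM1, a myeloma line from mouse, for 72 h. The labels call such cells TAMs, for tumour-associated macrophages. KO macrophages carried the same knockout and were grown without myeloma cells, for a time that is not given. WT TAMs and WT macrophages were wild-type cells kept with and without 5TGM1. All macrophages grew in RPMI medium with serum and antibiotics. The sources used here do not give the kind of Cd36 allele, the tissue of origin, the age and strain of the mice or how myeloma cells were removed. Nothing says that replicates were separate cultures or animals, so p-values measure only the spread between these arrays, which may be technical.

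FcγRI, FcγRIII and FcγRIV are activating receptors. They reach the cell surface and signal together with the Fcer1g chain, whose tyrosine motif recruits the kinase Syk and starts phagocytosis, the oxidative burst and cytokine release. FcγRIIB has an inhibitory tyrosine motif of its own that recruits the lipid phosphatase encoded by Inpp5d (SHIP1), and the balance between it and the activating receptors sets how strongly a macrophage answers to antibody-coated targets. FcγRI binds single IgG molecules with high affinity and its gene is known as a target of interferon gamma, while the others bind mainly immune complexes.

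Levels are log2 values of the deposited intensities. Differences are log2 differences ± standard error of a limma fit to all 12 arrays, and the words rose, fell and called stand for an adjusted p below 0.05 (Benjamini-Hochberg, all 22180 genes). The array medians of intensity lay between 31.3 and 33.3, and the number of arrays limits the precision. Cd36 read 8.45 to 9.66 on the 6 KO arrays, against 12.10 to 12.53 on the 6 WT arrays. Xist, expressed from the inactive X of female cells, lay between 3.91 and 4.35 in KO and between 11.08 and 11.32 in WT. Genotype and this sex-linked difference thus cannot be told apart in any KO against WT comparison. The same holds for the interaction, where the co-culture differences of KO and WT cells are compared. Arrays of a group correlated across genes at 0.982 to 0.994 in KO TAMs and 0.988 to 0.995 in WT TAMs, against 0.995 to 0.996 in KO macrophages and 0.996 to 0.997 in WT macrophages, and KO TAM 1 and WT TAM 2 had the lowest array weights of their groups (0.266 and 0.329). The mean of all 8 macrophage markers was 11.80 to 12.14 in KO TAMs and 11.50 to 11.51 in KO macrophages. It was 11.79 to 11.93 in WT TAMs and 11.52 to 11.59 in WT macrophages. Of the 8, 4 rose and 1 fell in KO co-culture (2.9% and 3.63% of all genes). In WT co-culture 3 rose and 2 fell (5.89% and 5.66%). Adgre1 (12.16 to 12.83) and Cd68 (12.05 to 13.07) of these 8 were high on all 12 arrays. The plasma cell genes Jchain (3.28 to 3.84) and Tnfrsf17 (3.35 to 4.09), the B cell gene Ms4a1 (3.31 to 3.60), the neutrophil genes S100a8 (2.78 to 3.37) and Ly6g (2.49 to 3.82) and the mast cell gene Fcer1a (2.66 to 3.19) were low on all of them, against a median of 5.34 over all genes. Other genes of the same marker lists were not low. Slamf7 (11.78 to 12.56) and Xbp1 (9.66 to 10.21) of the plasma cell list were high throughout, and Cd79b (5.77 to 9.16), Cd22 (6.35 to 8.99) and Fcrl1 (7.02 to 9.25) of the B cell list and Mmp8 (4.91 to 10.29) of the neutrophil list varied between arrays. Cd79b averaged 7.53 in KO TAMs, 9.10 in KO macrophages, 6.04 in WT TAMs and 7.85 in WT macrophages, and Mmp8 averaged 7.54, 5.17, 9.47 and 8.60 in these groups. The part of cells of other types in the results was not tested.

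Fcgr2b, Fcgr4, Fcgr3 and Fcer1g lie in this order on chromosome 1, and Fcgr1 lies on chromosome 3. The 4 receptor promoters are shown because these genes did not share 1 pattern across the groups. Each window runs from 250 bases before to 50 bases after the annotated start, read 5′ to 3′ along the gene, from the RefSeq table of build GRCm38.p6. They are chr3:96293920-96294219 on the minus strand for Fcgr1, chr1:170976022-170976321 on the minus strand for Fcgr2b, chr1:171059354-171059653 on the minus strand for the first of 2 listed Fcgr3 starts, and chr1:171018676-171018975 on the plus strand for Fcgr4. The annotated Fcgr3 gene runs to base 171065915, upstream of both listed starts, so the window shown does not lie at its outer end. Capitals mark the searched motifs named after the sequences.
Fcgr1: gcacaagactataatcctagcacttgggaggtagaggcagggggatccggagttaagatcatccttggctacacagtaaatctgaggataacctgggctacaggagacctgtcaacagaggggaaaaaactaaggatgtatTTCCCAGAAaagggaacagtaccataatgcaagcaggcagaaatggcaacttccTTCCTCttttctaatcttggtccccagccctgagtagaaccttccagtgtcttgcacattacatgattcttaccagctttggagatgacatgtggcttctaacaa
Fcgr2b: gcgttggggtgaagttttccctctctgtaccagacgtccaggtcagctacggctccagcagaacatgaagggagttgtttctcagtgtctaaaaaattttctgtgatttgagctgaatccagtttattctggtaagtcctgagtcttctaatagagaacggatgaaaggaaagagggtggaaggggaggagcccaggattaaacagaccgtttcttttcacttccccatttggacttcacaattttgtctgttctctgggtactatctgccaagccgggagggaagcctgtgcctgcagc
Fcgr3: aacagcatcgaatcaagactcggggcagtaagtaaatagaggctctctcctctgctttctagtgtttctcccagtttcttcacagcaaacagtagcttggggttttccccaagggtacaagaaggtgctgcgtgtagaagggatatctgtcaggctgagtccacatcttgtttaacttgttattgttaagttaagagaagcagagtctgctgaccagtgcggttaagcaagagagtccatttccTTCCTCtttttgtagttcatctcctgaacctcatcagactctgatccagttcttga
Fcgr4: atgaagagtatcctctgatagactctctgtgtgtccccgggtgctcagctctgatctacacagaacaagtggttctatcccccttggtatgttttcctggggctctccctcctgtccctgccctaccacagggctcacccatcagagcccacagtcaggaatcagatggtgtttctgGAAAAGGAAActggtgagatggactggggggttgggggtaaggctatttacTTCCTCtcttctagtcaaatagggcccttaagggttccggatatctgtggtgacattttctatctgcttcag

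The motifs were searched on both strands of all 32851 promoter windows of that table. The core of sites of PU.1, the myeloid transcription factor encoded by Spi1, was taken as GAGGAA and was found in 28.3% of the windows. It occurred once, on the antisense strand as TTCCTC, in the windows of Fcgr1, Fcgr3 and Fcgr4, where its first base lay 55, 6 and 22 bases before the start. A gamma-interferon activated site was taken as TTCNNNGAA, found in 8.3% of the windows, and occurred once, in Fcgr1, as TTCCCAGAA 109 bases before the start. The core of an interferon-stimulated response element was taken as GAAA, any 2 bases and GAAA again, found in 3.44% of the windows, and occurred once, in Fcgr4, as GAAAAGGAAA 73 bases before the start. The TATA box core TATAAA, found in 13.6% of the windows, was in none of the windows of the 5 genes. No searched motif was found in those of Fcgr2b and Fcer1g, and no match overlapped another. A match shows only that these letters stand there.

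All 5 genes were among the brightest on the array, with Fcer1g, the signal chain, ranked 19th by its mean level over 12 arrays and Fcgr4 171st of 22180. At least 98.6% of all genes had a lower mean than any of them. The levels of different probe sets are not comparable, so each gene is followed below across the groups and not against the others.

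**Figure D1:**
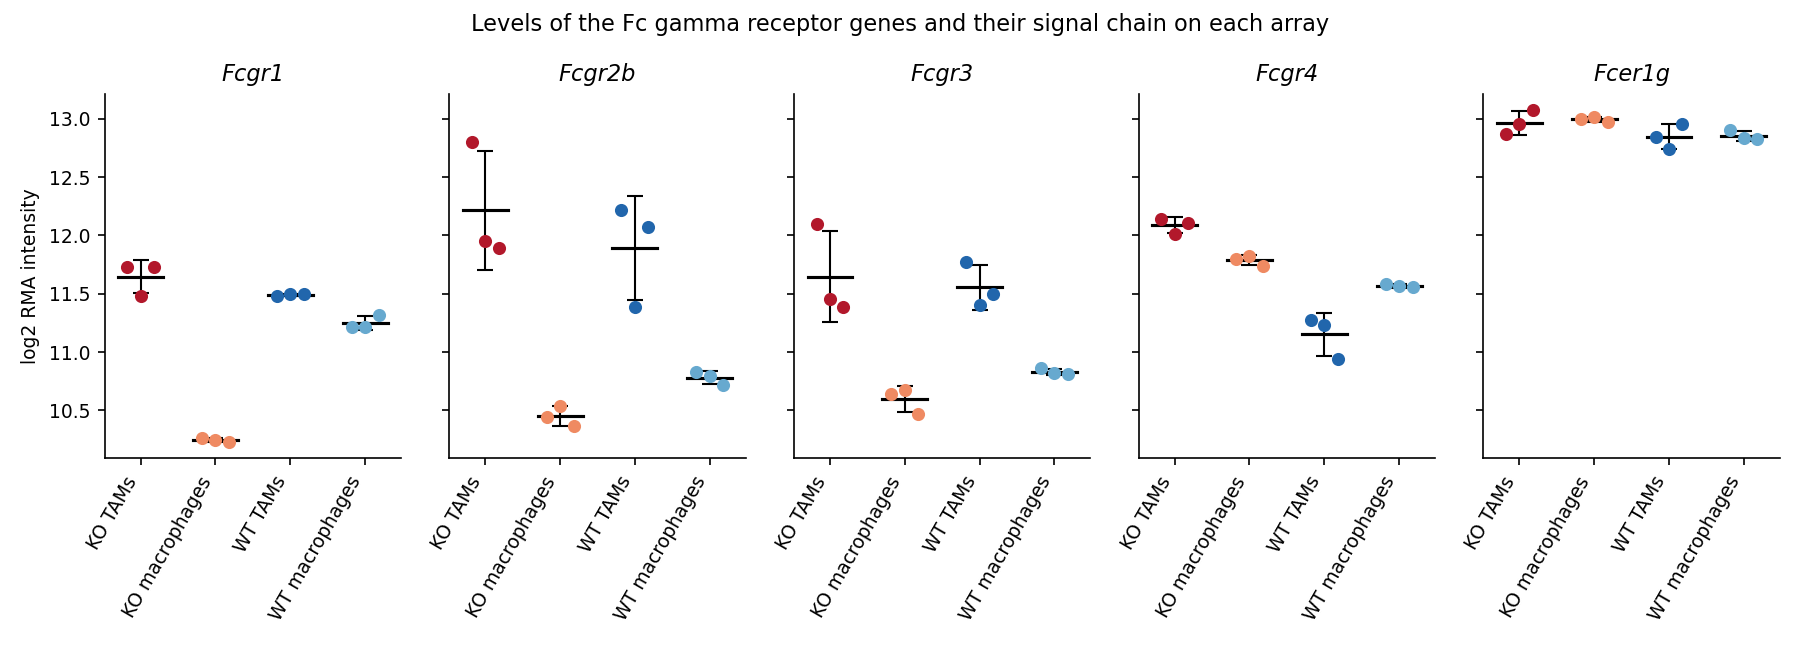
Levels (log2 RMA intensity, vertical axis) of the 5 genes on each array of KO TAMs, KO macrophages, WT TAMs and WT macrophages. Points are arrays, the wide bar is the mean of 3 and the error bar 1 SD. Fcgr1 was lowest in KO macrophages (10.23 to 10.26), Fcgr4 lowest in WT TAMs (10.94 to 11.28), and Fcer1g lay between 12.74 and 13.07 on all arrays.

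Fcgr1, the high-affinity receptor gene, was low in KO macrophages and lay between 11.21 and 11.73 on the arrays of the other 3 groups. It read 11.73, 11.48 and 11.73 on KO TAM 1, 2 and 3, against 10.26, 10.24 and 10.23 on KO macrophage 1, 2 and 3. It read 11.48, 11.50 and 11.50 on WT TAM 1, 2 and 3, against 11.22, 11.21 and 11.32 on WT macrophage 1, 2 and 3. Each KO macrophage array was thus more than 0.9 below every other array. In KO cells the gene rose 2.64-fold with co-culture (1.40 ± 0.08, adjusted p = 9.17e-06). In macrophages grown alone it was 2.0-fold lower in KO than in WT (-1.0 ± 0.08, adjusted p = 5.07e-05). In bulk samples such as these, fewer cells that express a gene and less RNA of it per cell cannot be told apart.

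In WT cells the co-culture difference of Fcgr1 was 0.25 ± 0.08, and although the arrays did not overlap it did not pass the test (adjusted p = 0.087). It passed when a pseudocount of 16 was added (adjusted p = 0.0307), when genes under the median level were left out (0.0337) and with trended, robust moderation (0.0329). Between TAMs the genotypes differed by 0.15 ± 0.08 (95% interval -0.03 to 0.34, adjusted p = 0.284), with overlapping arrays. The co-culture difference in KO cells exceeded that in WT cells by 1.16 ± 0.12 (adjusted p = 0.00366). This interaction was called in 43 of 22180 genes, or 0.194% (0.104% higher and 0.0902% lower), in 444 without KO TAM 1 and in 247 without WT TAM 2, and Fcgr1 was the only one of the 5 receptor and chain genes in which it was called. It kept its call when each array was left out in turn.

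Fcgr2b, the gene of the inhibitory receptor, rose with co-culture in both genotypes. It read 12.80, 11.95 and 11.89 on KO TAM 1, 2 and 3, against 10.45, 10.54 and 10.36 on KO macrophage 1, 2 and 3. It read 12.22, 11.39 and 12.07 on WT TAM 1, 2 and 3, against 10.83, 10.79 and 10.72 on WT macrophage 1, 2 and 3. Every TAM array was above every macrophage array, and the TAM arrays spread widely, with KO TAM 1 highest and WT TAM 2 lowest among them. The rise was 3.40-fold in KO cells (1.77 ± 0.24, adjusted p = 0.00144) and 2.16-fold in WT cells (1.11 ± 0.24, adjusted p = 0.0102). Leaving out single arrays gave 1.47 to 1.93 in KO cells and 0.95 to 1.36 in WT cells, and the call stayed.

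The rises of Fcgr2b in the 2 genotypes differed by 0.65 ± 0.34, which did not pass the test (95% interval -0.08 to 1.39, adjusted p = 0.577). This difference was 0.36 without KO TAM 1, 0.40 without WT TAM 2 and 0.11 without both. The genotype difference did not pass in either culture. It was 0.32 ± 0.24 between TAMs (adjusted p = 0.455) and -0.33 ± 0.24 between macrophages (adjusted p = 0.436). Among TAMs it took the other sign, at -0.22, without WT TAM 2 and KO TAM 1. Among macrophages the 3 KO arrays lay below the 3 WT arrays. The difference passed without WT TAM 2 and KO TAM 1 (adjusted p = 0.0114) and in a fit of the macrophage arrays alone (0.0162). These settings called 4558 and 4716 genes between macrophages, against 2512 in the main fit.

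Fcgr3, the gene of the activating low-affinity receptor FcγRIII, followed Fcgr2b. It read 12.10, 11.46 and 11.39 on KO TAM 1, 2 and 3, against 10.64, 10.67 and 10.47 on KO macrophage 1, 2 and 3. It read 11.77, 11.40 and 11.49 on WT TAM 1, 2 and 3, against 10.86, 10.82 and 10.81 on WT macrophage 1, 2 and 3. Again no TAM array was as low as any macrophage array, and KO TAM 1 was the highest. Fcgr3 rose 2.07-fold in KO cells (1.05 ± 0.16, adjusted p = 0.00342) and 1.65-fold in WT cells (0.72 ± 0.16, adjusted p = 0.0141). The WT call was lost without WT macrophage 3 (adjusted p = 0.0515) or WT TAM 1 (0.0594). The genotypes differed by 0.09 ± 0.16 between TAMs (95% interval -0.27 to 0.45) and by -0.23 ± 0.16 between macrophages (-0.59 to 0.12), and neither passed. Without WT TAM 2 and KO TAM 1 the difference between TAMs was -0.21.

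Among all genes over the median level, Fcgr3 was the gene most like Fcgr2b over the 12 arrays (Pearson r = 0.984), ahead of Slc31a1 (0.982), P2ry14 (0.978), Slc29a3 (0.974) and Rnf144b (0.973). After the mean of each group was subtracted, r between Fcgr2b and Fcgr3 was 0.905, and it was 0.779 without KO TAM 1. The pattern most like that of Fcgr3 was that of P2ry14 (0.985), followed by Suds3 (0.985), Fcgr2b, Fabp5 (0.977) and Prkx (0.976). These values describe 12 arrays that share their culture and genotype within groups. The mouse genes Fcgr2b and Fcgr3 are closely similar in the part that encodes the outer domains. The sources used here do not give which bases their probe sets read, so signal of one gene on the probe set of the other was not tested.

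**Figure D2:**
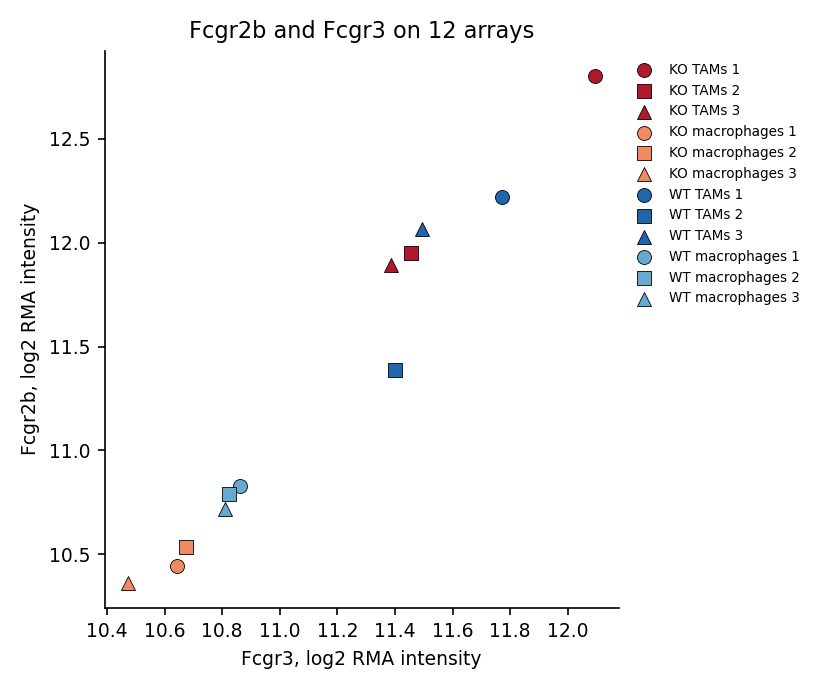
Fcgr2b against Fcgr3 (both log2 RMA intensity) on the 12 arrays, with colour for the group and the marker shape for the replicate number. The 6 macrophage arrays sit at the lower left, the 6 TAM arrays at the upper right, and KO TAM 1 is highest on both axes (12.10 and 12.80).

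Fcgr4, the gene of the activating receptor FcγRIV, was the receptor gene whose co-culture difference had opposite signs in the 2 genotypes. It read 12.14, 12.02 and 12.11 on KO TAM 1, 2 and 3, against 11.80, 11.82 and 11.74 on KO macrophage 1, 2 and 3. It read 11.28, 11.24 and 10.94 on WT TAM 1, 2 and 3, against 11.58, 11.56 and 11.55 on WT macrophage 1, 2 and 3. All KO TAM arrays were above all KO macrophage arrays, and all WT TAM arrays were below all WT macrophage arrays. Fcgr4 fell 1.33-fold with co-culture in WT cells (-0.42 ± 0.09, adjusted p = 0.014), but not when WT macrophage 1 was left out (0.0538). In KO cells the difference was 0.30 ± 0.09 and did not pass (adjusted p = 0.0844).

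The genotypes lay furthest apart in TAMs, where Fcgr4 was 1.92-fold higher in KO than in WT (0.94 ± 0.09, adjusted p = 0.000164), and this held without any single array. In macrophages the KO arrays were also all above the WT arrays, by 0.22 ± 0.09, but this did not pass (adjusted p = 0.169) except in a fit of the macrophage arrays alone (0.0371). The co-culture differences in KO and WT cells differed by 0.72 ± 0.13 (unadjusted p = 0.000171), which missed the threshold after adjustment (adjusted p = 0.0631). Adjusted p fell under the threshold in 7 of the 21 alternatives run, at 0.0122 to 0.0323, and was 0.0627 to 0.197 in the others. Without KO TAM 1 it was 0.0323 and without WT TAM 2 it was 0.0299. The genes most like Fcgr4 over 12 arrays were Nudt16 (r = 0.970), Csf3r (0.953), the receptor of granulocyte colony stimulating factor, Inpp5k (0.948), Marchf1 (0.933) and Dram2 (0.932).

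Fcer1g, without which the activating receptors do not signal, differed little between groups. It read 12.87, 12.96 and 13.07 on KO TAM 1, 2 and 3, against 13.00, 13.02 and 12.97 on KO macrophage 1, 2 and 3. It read 12.84, 12.74 and 12.95 on WT TAM 1, 2 and 3, against 12.90, 12.83 and 12.83 on WT macrophage 1, 2 and 3. The co-culture difference was -0.03 ± 0.08 in KO cells (95% interval -0.21 to 0.15) and -0.01 ± 0.08 in WT cells (-0.19 to 0.18). The KO level was 0.12 ± 0.08 above the WT level in TAMs and 0.14 ± 0.08 above it in macrophages (adjusted p = 0.428 and 0.339). At this brightness an array can compress differences, which was not tested. The genes most like Fcer1g were Prpsap2 (r = 0.941), Samd9l (0.888), Hsbp1 (0.885), Tank (0.883) and Gab3 (0.873).

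**Figure D3:**
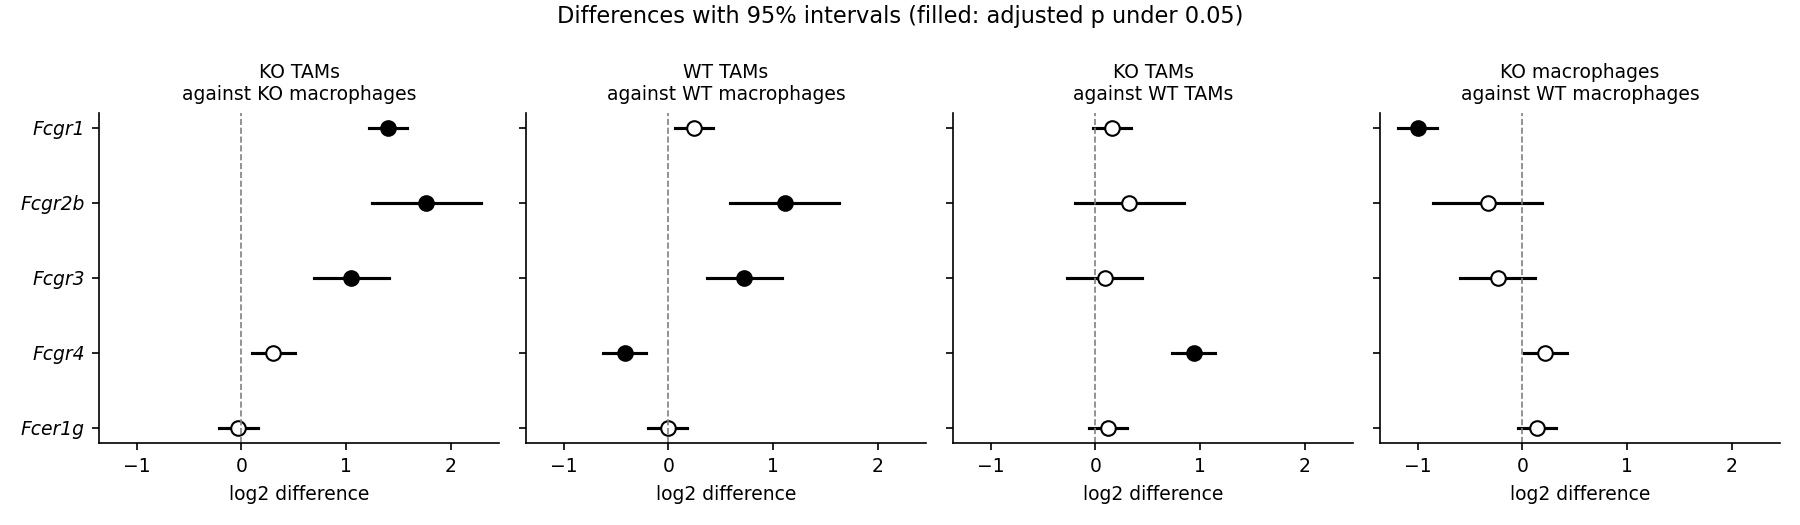
Log2 differences of the 5 genes in 4 comparisons with their 95% intervals from the limma fit, filled where adjusted p was under 0.05. Fcgr2b and Fcgr3 lay right of 0 in both co-culture comparisons, Fcgr4 right of 0 between TAMs (0.94), and Fcgr1 left of 0 between macrophages (-1.0).

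Counted together, 3 of the 5 genes rose and 0 fell in KO TAMs against KO macrophages, where 6.53% of all genes were called (2.9% higher and 3.63% lower). In WT TAMs against WT macrophages 2 rose and 1 fell, where 11.5% of all genes were called (5.89% higher and 5.66% lower). Between KO TAMs and WT TAMs 1 of 5 rose, where 12.2% of all genes were called (5.03% higher and 7.19% lower, or 1116 and 1594 genes, and 750 and 1953 genes with arrays centred on their medians). Between KO macrophages and WT macrophages 1 of 5 fell, where 11.3% of all genes were called (5.19% higher and 6.13% lower). Calls were more frequent among the 317 genes at least as bright as the dimmest of the 5, at 19.9% in KO co-culture, 31.9% in WT co-culture, 23.3% between TAMs, 18.6% between macrophages and 1.58% (5 genes) in the interaction. The arrays of the groups did not overlap for 4 of 5 genes in each co-culture comparison (26.3% of all genes in KO and 30.1% in WT), for 1 of 5 between TAMs (24.6%) and for 5 of 5 between macrophages (38.5%). The median difference of the 5 genes was 1.05 in KO co-culture and 0.25 in WT co-culture, against -0.01 and 0.01 over all genes. The comparisons share groups of arrays with each other, so their counts are not independent.

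The inhibitory receptor gene stood higher against each activating receptor gene in TAMs than in macrophages, on average over arrays. The shift is the change of Fcgr2b minus the change of the other gene, taken array by array, and carries no test. Against Fcgr4 it was 1.46 in KO cells and 1.53 in WT cells, and no TAM array overlapped the macrophage arrays of its genotype. Against Fcgr3 it was 0.72 in KO cells and 0.39 in WT cells, where WT TAM 2 lay at 0.04, close to the WT macrophages. Against Fcgr1 it was 0.36 in KO cells, with overlapping arrays, and 0.87 in WT cells. KO TAM 1 lay at 1.54, KO TAM 2 and 3 at 0.93 and 0.63 and the KO macrophages at 0.60 to 0.76, so that the KO shift was 0.11 without KO TAM 1 and 0.56 without KO TAM 3. Between KO and WT macrophages the shift was -0.55 against Fcgr4 and 0.67 against Fcgr1, both without overlap.

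**Figure D4:**
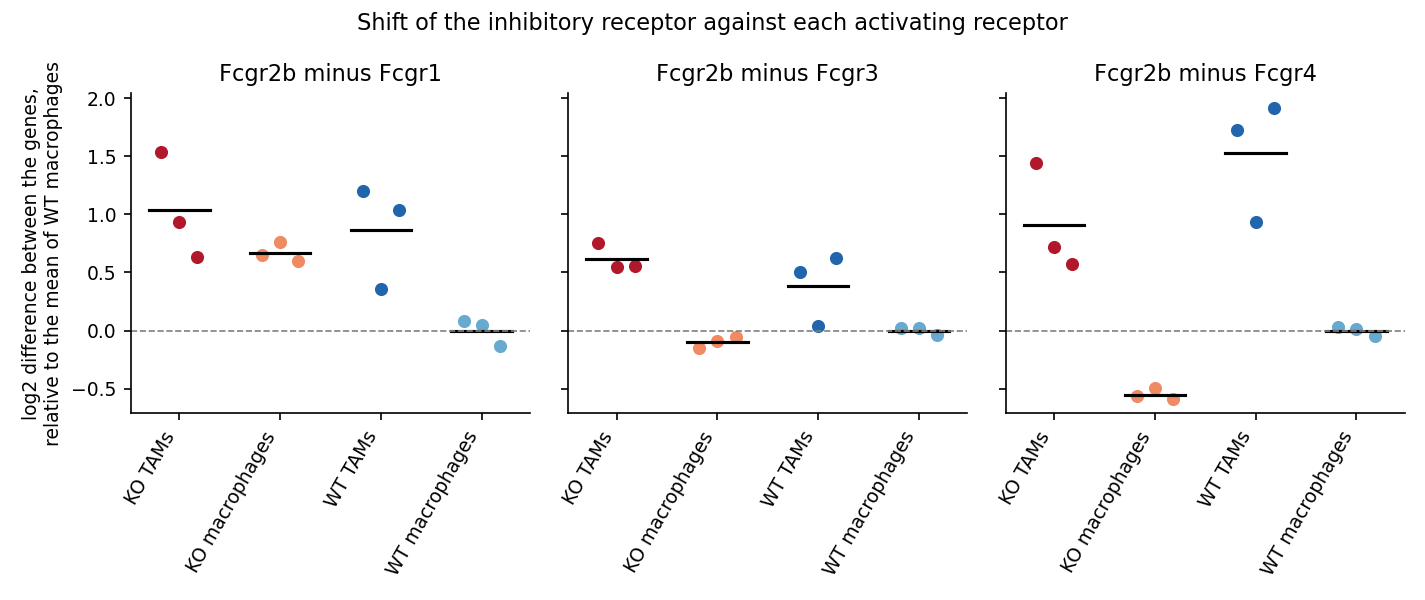
Log2 difference between Fcgr2b and each activating receptor gene on each array, relative to the mean of WT macrophages (dashed line at 0). Points are arrays and bars are means of 3. Against Fcgr4 the KO TAMs lay at 0.57 to 1.44, the KO macrophages at -0.59 to -0.50 and the WT TAMs at 0.94 to 1.92.

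Of the other receptors that pair with the Fcer1g chain, 2 rose in co-culture and some read low throughout. Fcer1a (2.66 to 3.19) and Ncr1 (3.69 to 3.95) lay under the median level of all genes (5.34) on every array. Oscar lay under it in its group means (4.14 to 4.97). Among 9 measured genes, these included, 2 rose and 0 fell in each co-culture comparison. The medians were 0.09 in KO and -0.17 in WT cells, against -0.01 and 0.01 over all genes. For this and the lists that follow, the shares over all genes were 2.9% higher and 3.63% lower in KO co-culture and 5.89% higher and 5.66% lower in WT co-culture. The 2 genes that rose were Clec4n (dectin-2), a receptor for fungal mannans, with 2.52 ± 0.25 in KO and 1.59 ± 0.25 in WT cells, and Clec4d, a receptor for mycobacterial glycolipid, with 1.65 ± 0.16 in KO and 0.94 ± 0.16 in WT cells. In KO against WT macrophages, where 5.19% of all genes were called higher and 6.13% lower, 0 of the 9 rose and 3 fell. Oscar was among them (adjusted p = 0.0426), but not without WT macrophage 1, 2 or 3 or KO macrophage 1 or 3 (highest adjusted p 0.16). Clec4d was another (-0.89 ± 0.16, adjusted p = 0.00463). Clec4d thus had its lowest mean in KO macrophages, as Fcgr1 did (9.46 ± 0.06, against 10.35 ± 0.03 in WT macrophages, SD, n = 3 each). Tyrobp, the related chain DAP12, had no call in any comparison, with 0.03 ± 0.07 in KO and -0.03 ± 0.07 in WT co-culture.

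On a list named for kinases and adaptors of activating signals, more genes fell than rose in co-culture. Of 18 measured, 0 rose and 4 fell in KO co-culture, with a median of -0.12, and 2 rose and 10 fell in WT co-culture, with a median of -0.46. The KO count of 4 was 0 or 1 without KO macrophage 1, 2 or 3, and the WT count of 12 called genes was 7 or 8 without WT macrophage 1, 2 or 3. For none of the 18 was the interaction of genotype and co-culture called. Falls in WT TAMs included the exchange factor Vav1 (-0.74 ± 0.10), the adaptor Lcp2 (SLP-76, -0.80 ± 0.12) and the phospholipase Plcg2 (-0.67 ± 0.12). Pik3r5 fell too (-0.85 ± 0.07, adjusted p = 5.48e-05). It encodes a regulatory subunit of the gamma form of phosphoinositide 3-kinase, which G protein-coupled receptors drive. The adaptor Lat2 rose (0.68 ± 0.10). Syk, the kinase that docks on the Fcer1g chain, averaged 10.39 ± 0.23 in KO TAMs, 10.40 ± 0.05 in KO macrophages, 9.90 ± 0.03 in WT TAMs and 10.33 ± 0.05 in WT macrophages. It fell in WT co-culture (-0.43 ± 0.11, adjusted p = 0.0212), but it no longer passed when WT macrophage 1, 2 or 3 or WT TAM 1 or 3 was left out (highest adjusted p 0.0804). In KO co-culture its difference was -0.01 ± 0.11, and it was higher in KO than in WT TAMs (0.50 ± 0.11, adjusted p = 0.00985, and 0.0992 in a fit of the TAM arrays alone).

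No gene of a wider list, named for inhibitory phosphatases and adaptors, rose in co-culture. Of its 11 measured genes, 0 rose and 2 fell in KO co-culture, and 0 rose and 5 fell in WT co-culture. Not all of them match that name. The WT falls included Csk, a kinase, and Ptprc (CD45), which can also favour activation. Inpp5d, whose product docks on FcγRIIB, was not called, with -0.12 ± 0.10 in KO and -0.11 ± 0.10 in WT cells. Ptpn6, the tyrosine phosphatase SHP-1, fell in WT TAMs (-0.88 ± 0.14, adjusted p = 0.00172) and was at -0.39 ± 0.14 in KO TAMs (adjusted p = 0.128). The adaptor Dok3 fell in both, by 1.01 ± 0.14 in KO and 1.30 ± 0.14 in WT cells. Cblb was at 0.58 ± 0.18 in WT co-culture, without overlap of arrays, and did not pass (adjusted p = 0.0616). In KO co-culture it was at 0.02 ± 0.18.

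A list of 15 measured myeloid receptor genes, most of them inhibitory, had 2 rises and 3 falls in KO co-culture and 3 rises and 4 falls in WT co-culture. Siglec1 is on this list but has no inhibitory motif of its own. This sialic acid receptor gene was 1 of the 2 KO rises: it rose in KO TAMs (2.24 ± 0.24, adjusted p = 0.000399) and was lower in KO than in WT macrophages (-1.31 ± 0.24). Cd300lf rose in both, by 0.58 ± 0.14 in KO and 0.97 ± 0.14 in WT TAMs. Pecam1, which endothelial cells also express, fell in both (-1.39 ± 0.31 in KO and -2.38 ± 0.31 in WT), as did Pilra (-1.21 ± 0.26 and -1.24 ± 0.26), while Clec4a2 fell in WT TAMs (-1.39 ± 0.13) and was at -0.41 ± 0.13 in KO TAMs (adjusted p = 0.0957). Without KO macrophage 1, 2 or 3, 1 of the 15 was called in KO co-culture in place of 5, and without WT macrophage 1, 2 or 3 or WT TAM 1, 4 were called in WT co-culture in place of 7. Among 11 other Fc receptor genes, 1 rose and 1 fell in KO and 0 rose and 3 fell in WT co-culture. The Fc receptor-like gene Fcrl1 fell in both (-1.31 ± 0.18 in KO and -1.30 ± 0.18 in WT). Fcrls (-2.71 ± 0.48) and Fcrl5 (-4.42 ± 1.01, adjusted p = 0.0145) fell in WT. The Fcrl5 call was lost without WT macrophage 1 or WT TAM 1 or 3 (highest adjusted p 0.0594). In KO co-culture Fcrls was at -1.53 ± 0.48 and Fcrl5 at -2.18 ± 1.01, and neither was called. Fcrls read 9.85, 12.38 and 12.12 and Fcrl5 5.41, 9.95 and 10.18 on KO TAM 1, 2 and 3. Fcgrt, the gene of the neonatal receptor that recycles IgG, rose in KO co-culture (0.57 ± 0.14, adjusted p = 0.0326), which did not pass when KO macrophage 1, 2 or 3 or KO TAM 1 or 2 was left out (highest adjusted p 0.11) and in a fit of the KO arrays alone (0.126). Its difference in WT co-culture was 0.12 ± 0.14 (adjusted p = 0.686).

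Genes of the phagocytic cup and its actin machinery fell more often than they rose. Of 21 measured, 1 rose and 7 fell in KO co-culture (median -0.28), and 1 rose and 11 fell in WT co-culture (median -0.39). The 8 KO calls were 4 without KO macrophage 1, 2 or 3 and 5 without KO TAM 1. The 12 WT calls were 10 to 12 without single arrays. The KO rise was that of the myosin gene Myo10 (1.23 ± 0.22, adjusted p = 0.00689), which was at 0.35 ± 0.22 in WT cells (adjusted p = 0.385). Myo10 averaged 7.80 in KO macrophages and 9.14 in WT macrophages. Coro1a, which binds actin, fell by 0.92 ± 0.16 in KO and 1.22 ± 0.16 in WT cells, Myo1e, a myosin, by 0.65 ± 0.10 and 0.88 ± 0.10 in these groups, and the integrin Itgb2 by 0.63 ± 0.08 and 0.58 ± 0.08. Of 4 measured subunits of the phagocyte oxidase, Cybb rose in KO TAMs (0.59 ± 0.08, adjusted p = 0.002), and Ncf1 (-0.41 ± 0.08) and Ncf4 (-0.46 ± 0.09) fell in WT TAMs.

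Among 15 measured regulators known to act on Fc receptor genes, 2 rose and 1 fell in KO co-culture and 4 rose and 2 fell in WT co-culture, and without WT TAM 2 and KO TAM 1 the calls were 6 and 10. Over all genes 6.53% were called in KO and 11.5% in WT co-culture. Spi1 averaged 10.40 ± 0.06 in KO TAMs, 10.88 ± 0.02 in KO macrophages, 10.12 ± 0.14 in WT TAMs and 10.93 ± 0.03 in WT macrophages. It fell in both, by 0.48 ± 0.08 (adjusted p = 0.00687) in KO and by 0.81 ± 0.08 (adjusted p = 0.000161) in WT cells. Irf8, a partner of PU.1 in myeloid cells, rose in KO TAMs (0.54 ± 0.09, adjusted p = 0.00432) and in WT TAMs (0.35 ± 0.09, adjusted p = 0.0227). The WT call was lost with the mean over its probe sets (0.155). It was also lost without WT macrophage 2 or 3 or WT TAM 1 or 2 (highest adjusted p 0.0882). Tgfbr2, a receptor of transforming growth factor beta, rose in WT TAMs (0.69 ± 0.08) and was higher in KO than in WT macrophages (0.75 ± 0.08).

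**Figure D5:**
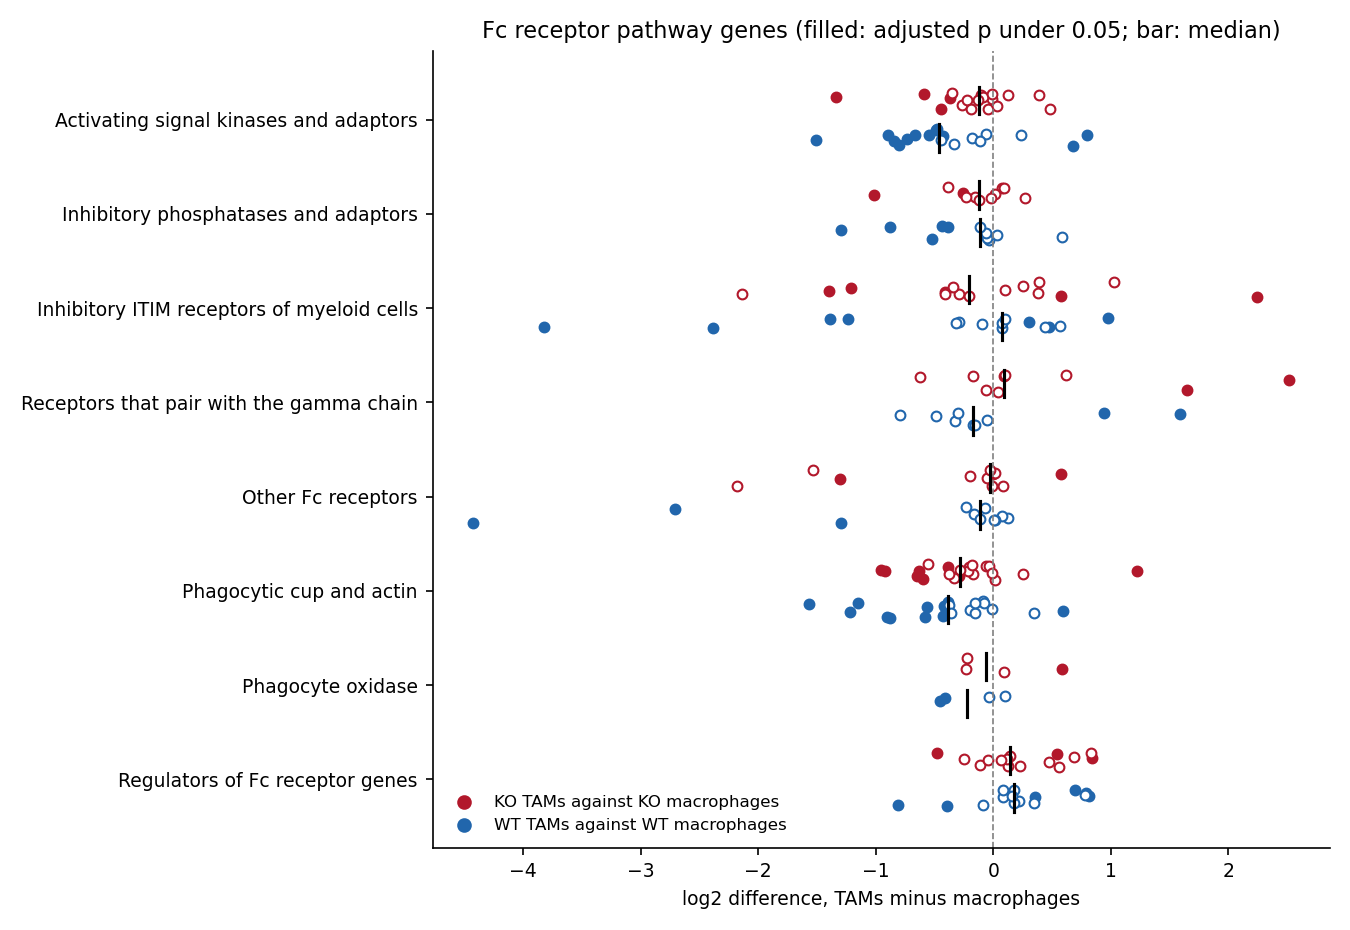
Log2 differences between TAMs and macrophages (horizontal axis) for the genes of 8 lists around the Fc gamma receptors, the 5 receptor and chain genes left out, in KO cells (upper points of each list, red) and WT cells (lower points, blue). The list of ITIM receptors holds Siglec1, which has no such motif, and that of inhibitory phosphatases and adaptors holds Csk, a kinase. Filled points were called and black bars are medians, with the activating kinases and adaptors at -0.12 in KO and -0.46 in WT.

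The genes most like Fcgr1 over the 12 arrays were Clec7a (r = 0.976), the glucan receptor dectin-1, Gpnmb (0.965), the interferon-induced Ifitm3 (0.965), the folate receptor Folr2 (0.942) and Pttg1ip (0.941). Markers of other cells moved with the groups in part. The mean of 10 stromal and endothelial markers was 5.47 to 6.18 in KO TAMs, 5.06 to 5.16 in KO macrophages, 6.51 to 7.14 in WT TAMs and 5.97 to 6.03 in WT macrophages. Of the 10, 2 were called in KO and 3 in WT co-culture, all higher. In KO against WT, 5 fell in TAMs (median -1.16) and 3 in macrophages (median -0.56), and 0 rose in either. Over all genes 7.19% and 6.13% fell in these comparisons. The mean of 8 B cell markers was 5.07 to 5.63 in KO TAMs, 5.61 to 5.67 in KO macrophages, 4.95 to 5.09 in WT TAMs and 5.38 to 5.40 in WT macrophages. The mean of 12 myeloma and plasma cell markers was 5.90 to 6.07 in KO TAMs, 5.82 to 5.91 in KO macrophages, 5.98 to 6.12 in WT TAMs and 6.11 to 6.14 in WT macrophages. Of the 12, 0 rose and 1 fell in KO co-culture and 0 rose and 2 fell in WT co-culture.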

How the data were processed

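Total RNA of 12 mouse macrophage samples was labelled with biotin for 1-colour GeneChip arrays, per the labels' protocols. The authors deposited 1 table of intensity values, made with RMA per the submitters' processing notes, which also name limma, without versions. RMA makes the arrays share 1 distribution, so a shift common to most genes is not visible. The values were linear (lowest 3.57), and log2 was taken with no pseudocount. No genome build is given by these sources.

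Of 41345 probe sets, 23521 had 1 gene symbol, 1814 several and 16010 none. Only the first kind was used, keeping the probe set of highest mean for each of 22180 genes. Of these, 21994 were found in the RefSeq table of GRCm38.p6 by Entrez identifier, where 0 symbols differed. Groups came from the sample titles. Differences were fitted with limma 3.58.1 in R 4.3.3 (lmFit, eBayes, 4 group means, no covariate, 8 residual degrees of freedom), tested on simulated data.

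The 5 genes and the lists of pathway and marker genes were chosen with earlier results of these data known. Of each pathway list, up to 6 genes called in any comparison could be named, smallest adjusted p first, beside a fixed set (Spi1, Irf8, Syk, Inpp5d, Ptpn6, Tyrobp, Fcgrt, Cd36). One further gene of that set is not reported here. For each of the 5 genes the 5 most correlated genes over the median level were named, predicted genes left out. The alternatives were a second quantile normalization, centring on medians, a pseudocount of 16, a filter at the median level, the mean of all probe sets of a gene, trended and robust moderation, array weights, only the arrays of a comparison, leaving out WT TAM 2 and KO TAM 1, a replicate block, and leaving out each array in turn.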

Additional observations from a re-analysis of the deposited data

Results flagged for a closer look

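Fcgr1 is listed for a closer look because its co-culture difference was not the same in the 2 genotypes by the interaction test. The difference in KO cells exceeded that in WT cells by 1.16 ± 0.12 (limma adjusted p = 0.00366). Every KO TAM array read higher than every KO macrophage array, and every WT TAM array higher than every WT macrophage array, by means of 1.40 in KO and 0.25 in WT cells. Over all alternatives the interaction lay between 1.06 and 1.24 with adjusted p from 0.000478 to 0.023. The genotypes lay apart in macrophages (-1.0) and not detectably in TAMs (0.15). In all these values genotype cannot be told apart from the sex-linked difference in Xist.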

How the results depend on the processing

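Fcgr2b in both co-culture comparisons, Fcgr3 in KO co-culture, Fcgr1 in KO co-culture, between macrophages and in the interaction, and Fcgr4 between TAMs kept direction and call under every alternative run. Of 93 other calls of named genes, 54 held in every alternative and 0 reversed. Under a pseudocount of 16, without genes under the median level and with trended, robust moderation, calls were gained by Fcgr1 in WT co-culture (0.24, 0.25 and 0.25), Fcgr4 in KO co-culture (0.30 in each, with adjusted p of 0.0411, 0.0371 and 0.0336) and Fcgr4 in the interaction (0.71, 0.72 and 0.72). Those settings called the interaction in 105, 100 and 99 genes, 2 of the 5 receptor and chain genes among them. Array weights gave 2705 genes in KO co-culture, 3976 in WT co-culture, 4725 between TAMs, 4923 between macrophages and 761 in the interaction, with Fcgr4 called there (0.69) as the second of 2 and with values of -0.047 for Fcgr2b and -0.12 for Fcgr3 between TAMs. Without WT TAM 2 and KO TAM 1 the counts were 4049 in WT co-culture, 4480 between TAMs, 4558 between macrophages and 1496 in the interaction, against 1449, 2561, 2710, 2512 and 43 genes with all arrays in KO co-culture, WT co-culture, TAMs, macrophages and interaction. Fcgr4 was then called in the interaction (0.73, 2 of 5 called), Fcgr2b between macrophages (-0.33, 2 of 5 called), and the differences between TAMs were -0.22 for Fcgr2b and -0.21 for Fcgr3. With only the groups of a comparison the counts were 505 in KO co-culture, 638 between TAMs and 4716 between macrophages, where Fcgr2b (-0.33) and Fcgr4 (0.22) were called, 3 of 5 in all. Fcer1g changed sign within its error, to 0.013 with centring, 0.026 with array weights and 0.044 without WT TAM 2 and KO TAM 1 in WT co-culture, and to 0.020 without those arrays in KO co-culture. Leaving out each array in turn gave 611 to 1659 genes in KO co-culture, 1475 to 2671 in WT co-culture, 1749 to 3710 between TAMs, 1403 to 1503 between macrophages and 14 to 444 in the interaction, with 1 or 2 of the 5 genes called there. Over these, Fcgr3 ranged from 0.62 to 0.80 and Fcgr4 from -0.48 to -0.31 in WT co-culture, Fcgr4 from 0.61 to 0.78 in the interaction, Fcgr3 from -0.13 to 0.22 between TAMs, and Fcer1g from -0.084 to 0.020 in KO co-culture, -0.062 to 0.044 in WT co-culture and -0.076 to 0.033 in the interaction. Same-numbered arrays were not shown to be pairs: the correlations of their deviations lay between -0.0557 and 0.271 and 4 of 12 arrays correlated best with their own number. With a replicate block the counts were 1326, 2423, 2564, 2311 and 26 in KO co-culture, WT co-culture, TAMs, macrophages and interaction, and no call of the 5 genes changed. The cause of these shifts was not tested. The 3 arrays per group limit the size of difference that can be called, and levels near the top of the range were not tested for compression.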
